A study of Homo sapiens with 6 samples.

Results

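The genes described here encode 5 abundant nucleolar proteins: nucleophosmin (NPM1), its smaller relative NPM3, nucleolin (NCL), treacle (TCOF1) and the RNA helicase DDX21. They were taken by symbol, and all 5 were found among the 16444 genes of the authors' spike-in-normalized table and among the 12075 genes to which FPKM values (read fragments relative to transcript length and library size) could be summed. RNA sequencing was done on KMS-27, an established human multiple myeloma cell line whose labels give bone marrow as its tissue. In siChe-1 cells an siRNA silenced Che-1, the protein encoded by AATF, and siControl cells received a control siRNA. Each group has 3 libraries of total RNA depleted of ribosomal RNA, with ERCC spike-in RNAs of known sequence. The sources used here do not give the time after transfection, the genotype of the line beyond its name, or whether replicate libraries stem from separate cultures. The p-values therefore describe the scatter of these libraries alone, which may be technical.

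The nucleolus is where ribosomal RNA is transcribed by RNA polymerase I, processed and assembled with ribosomal proteins. NPM1 is a chaperone of histones and ribosomal proteins that shuttles between nucleolus and cytoplasm, NCL is an RNA-binding protein that acts in ribosomal RNA transcription and processing, treacle is a scaffold that brings RNA polymerase I and its factor UBTF to the ribosomal genes, and DDX21 is a DEAD-box helicase that binds ribosomal RNA and snoRNAs. NPM1 is a recurrent target of mutation in acute myeloid leukaemia, TCOF1 is the main gene of Treacher Collins syndrome, and Che-1 itself has a role in ribosome assembly in the nucleolus.

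NPM1 was the only one of the 5 genes with more than 1 abundant transcript, and the 3 listed transcripts differ in their coding sequence. NM_002520 encodes the full protein of 294 amino acids. NM_199185 (265 amino acids) lacks a coding exon of 87 bases in frame, exon 8 of NM_002520, at chr5:171400839-171400925 on the plus strand of GRCh38. NM_001037738 (259 amino acids) parts from NM_002520 after exon 9 and ends on an exon of its own, so that it lacks the C-terminal part of the protein, which is known to bind nucleic acids and to hold NPM1 in the nucleolus. The stretches that tell the transcripts apart are shown because the results per transcript turn on them. They were read from GENCODE 29 through its RefSeq links, capitals mark the bases that the compared transcript lacks, and the 15 shared bases beside them stand in lower case.
NM_002520, exon 8: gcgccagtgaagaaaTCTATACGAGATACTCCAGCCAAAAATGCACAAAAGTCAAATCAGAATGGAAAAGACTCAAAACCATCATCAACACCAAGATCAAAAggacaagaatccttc
NM_199185, the same junction without it: gcgccagtgaagaaaggacaagaatccttc
NM_002520, coding end: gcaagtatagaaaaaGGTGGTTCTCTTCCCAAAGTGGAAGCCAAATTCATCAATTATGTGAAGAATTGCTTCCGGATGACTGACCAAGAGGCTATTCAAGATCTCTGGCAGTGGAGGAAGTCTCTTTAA
NM_001037738, coding end: gcaagtatagaaaaaGCGCATTGA
The 2 coding ends lie at chr5:171407700-171410565, where an intron parts the 114 capital bases, and at chr5:171406397-171406405.

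Promoter windows of 300 bases, 250 before to 50 after the start site, were available for NPM1, NCL, NPM3 and DDX21 from RefSeq (GRCh38.p14), and not for TCOF1. A window is shown for each member that has one, whatever its change. Capitals mark every match, on either strand, to 5 motifs. These are CACGTG, the E-box that MYC and MAX bind, then CCAAT, the box that NF-Y binds, then GGGCGG, the box that SP1 binds, then CCGGAAG, a core that ETS factors bind, and last TATAAA, the box that TBP binds. No match overlapped another.
NPM1, chr5:171387599-171387898, plus strand: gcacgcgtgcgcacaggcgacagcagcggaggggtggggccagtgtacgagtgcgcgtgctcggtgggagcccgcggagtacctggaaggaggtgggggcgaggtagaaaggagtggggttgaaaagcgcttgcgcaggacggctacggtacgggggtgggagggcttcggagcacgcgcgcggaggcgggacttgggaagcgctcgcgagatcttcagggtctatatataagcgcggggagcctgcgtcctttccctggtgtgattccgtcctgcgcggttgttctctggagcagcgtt
NCL, chr2:231464435-231464734, minus strand: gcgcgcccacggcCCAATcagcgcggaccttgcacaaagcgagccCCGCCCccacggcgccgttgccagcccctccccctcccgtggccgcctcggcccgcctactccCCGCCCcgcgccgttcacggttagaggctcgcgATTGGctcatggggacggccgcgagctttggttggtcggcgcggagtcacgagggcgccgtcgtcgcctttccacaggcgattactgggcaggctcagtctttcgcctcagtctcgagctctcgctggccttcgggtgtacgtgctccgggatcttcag
NPM3, chr10:101783397-101783696, minus strand: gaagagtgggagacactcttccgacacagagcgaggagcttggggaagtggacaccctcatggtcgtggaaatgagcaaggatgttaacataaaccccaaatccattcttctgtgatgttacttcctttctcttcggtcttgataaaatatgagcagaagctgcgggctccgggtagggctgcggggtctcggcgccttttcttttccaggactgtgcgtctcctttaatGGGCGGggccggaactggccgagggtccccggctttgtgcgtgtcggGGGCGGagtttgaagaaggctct
DDX21, chr10:68955920-68956219, plus strand: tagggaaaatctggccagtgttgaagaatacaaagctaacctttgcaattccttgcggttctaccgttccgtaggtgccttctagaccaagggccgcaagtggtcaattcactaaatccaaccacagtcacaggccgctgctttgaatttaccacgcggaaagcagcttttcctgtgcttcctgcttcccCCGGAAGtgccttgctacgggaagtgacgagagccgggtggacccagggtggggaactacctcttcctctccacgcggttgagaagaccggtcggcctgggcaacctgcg
The table holds 2 windows each for NPM1 and DDX21. The one whose start site is nearest to the first coding base of a listed transcript, at or upstream of it, is shown and was searched. No motif was shared by the 4 windows shown, and that of NPM1 held no exact match to any of the 5. The NPM1 window does hold TATAAG, which differs from TATAAA in its last letter alone and was not counted. Only exact letters were searched, so that a missing match does not show that a box is absent. CACGTG was in 0 of 4 (7.26% of 35116 promoter windows of the same length hold it), and TATAAA in 0 of 4 (11.5% of all). CCAAT occurred 2 times, in NCL alone (34.6% of all), GGGCGG in NCL and NPM3 (45.0% of all), and CCGGAAG in DDX21 alone (10.3% of all), at position -60 from its start site. These matches describe letters in a short window, and an absent match says nothing of a factor.

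The libraries were checked first. AATF was low in the siChe-1 libraries on both scales, with 671.9 and 549 spike-in-normalized reads, against 7157, 9855 and 10905 in siControl, and a deposited FPKM of 14.2 to 16.9, against 88.8 to 119 in siControl. Of the plasma cell markers, 7 of 8 had a mean of at least 100 spike-in-normalized reads (CD27 was below 10), and 0 of 16 markers of T cells, monocytes, erythroid, stromal and mature B cells did. The authors' spike-in table rests on 5 libraries, since siChe-1 replicate 3 does not enter its means. That library had 379232 spike-in reads, fewer than siChe-1 replicates 1 and 2 (835414 and 1041244) and within the range of siControl (351573 to 519573). Its FPKM values are among the 3 listed for siChe-1, at an unknown place, so that no FPKM result can be given without it by name. Results with each listed value left out are given instead. The 5 recovered libraries held 22086190 to 25402704 gene reads. For group means of 200 or more, reads were sought only within 0.6 on the log2 scale of each library's median gene. This range limits the scatter and the overlap that recovered reads can show.

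On the spike-in scale all 5 genes were lower in siChe-1 replicates 1 and 2, the siChe-1 libraries behind the authors' table. Whether replicate 3 shows the same fall on this scale was not tested. By group means in the authors' deposited table they stood at 0.251 (DDX21) to 0.37 (TCOF1) of siControl. This scale counts a gene's reads relative to the added spike-in RNA. In bulk RNA, fewer cells and less RNA per cell cannot be told apart on it. All 5 of 5 were called lower in the authors' deposited table at an adjusted p under 0.05, as were 63.5% of all 12591 genes whose mean reached 10 (0.0635% were called higher), and the median log2 fold change of all those genes was -1.25. The calls of the 5 genes are therefore read against that median, and 4 of the 5 lay 0.53 to 0.75 below it.

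NPM1 had 26609 and 24285 spike-in-normalized reads in siChe-1 replicates 1 and 2, against a mean of 95967 in siControl in the authors' deposited table. Within the range searched, the siControl mean allows 3 sets of whole reads, whose libraries run from 51584 to 144845. Each siControl library of these sets lies above both siChe-1 libraries, but that range alone keeps the groups apart at these means. The same holds for NPM3, NCL and DDX21 below, and not for TCOF1. The authors' deposited log2 fold change was -1.92 with an adjusted p of 0.00015, and edgeR's quasi-likelihood test with Benjamini-Hochberg adjustment gave -1.92 with each set (adjusted p at most 4.86e-07). GENCODE 29 names 45 pseudogenes of NPM1. Reads could be shared with such copies or lost in counting, and the level is uncertain to that extent.

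NPM3, which binds NPM1, had 291.5 and 271 spike-in-normalized reads in siChe-1, against 625, 1141 and 1128 in siControl. Both siChe-1 libraries lay below every siControl library, as the range searched requires at these means. Of its group, siControl replicate 1 was the lowest. In that library the median gene stood at -0.47 against the siControl mean on the log2 scale, and NCL, TCOF1 and DDX21 were also lowest there. The authors' deposited log2 fold change was -1.78 (adjusted p 0.0069), and edgeR's quasi-likelihood test gave -1.78 with a standard error of 0.37 (adjusted p 1.6e-05).

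NCL had 15232 and 18193 spike-in-normalized reads in siChe-1, against 42474, 79118 and 64117 in siControl. The groups did not overlap, as the range searched requires at these means. Its log2 fold change was -1.89 in the authors' deposited table (adjusted p 0.00443) and -1.89 with a standard error of 0.33 by edgeR's quasi-likelihood test (adjusted p 6.18e-07). NCL has 2 annotated pseudogenes.

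TCOF1 had 2939 and 1959 spike-in-normalized reads in siChe-1, against 5215, 7234 and 7380.5 in siControl. The groups did not overlap here either, but the gap was the smallest of the 4 genes with values per library: the highest siChe-1 library reached 0.564 of the lowest siControl library, against 0.337 for DDX21. The log2 fold change of TCOF1 was -1.43 in the authors' deposited table (adjusted p 0.00258) and -1.43 with a standard error of 0.33 by edgeR (adjusted p 7.63e-05). Without siChe-1 replicate 2, TCOF1 was no longer called by edgeR (log2 fold change -1.17, adjusted p 0.0635).

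DDX21 had 12592 and 9426 spike-in-normalized reads in siChe-1, against 37326, 42678 and 51668 in siControl. The range searched requires a gap between the groups at these means. The authors' deposited log2 fold change was -2.00 (adjusted p 6.32e-05), and edgeR's quasi-likelihood test gave -2.00 with a standard error of 0.34 (adjusted p 1.89e-07). Exact two-sided permutation tests of the 3 against 2 values of NPM3, NCL, TCOF1 and DDX21 each gave p = 0.2, the smallest this number of libraries allows. For NPM3, NCL and DDX21 the range in which reads were sought fixed this p beforehand, since it allows no overlap at their group means. That range also limits overlap in other genes with means of 200 or more. Every siChe-1 library lay below every siControl library in 89.6% of the 12543 genes tested on this scale. In 0.454% every siChe-1 library lay above every siControl library. Of the same genes, edgeR called 84.4% lower and 0.191% higher, against 4 of the 4 members with recovered reads. Against the group mean, the median gene stood at -0.47, 0.25 and 0.10 in siControl replicates 1 to 3 on the log2 scale. Genes of a library share such a shift, but edgeR draws its spread from all genes as if separate. The small edgeR p-values of the members on this scale therefore overstate what 5 libraries show.

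**Figure D1:**
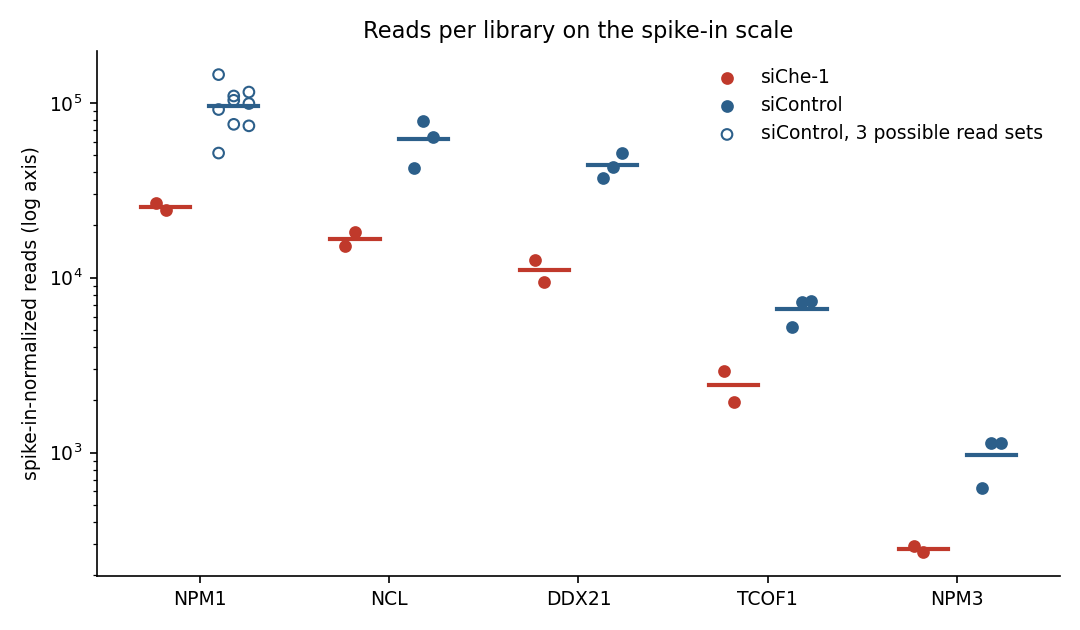
Spike-in-normalized reads (log axis) of the 5 genes in siChe-1 (red, 2 libraries) and siControl (blue, 3 libraries). Points are libraries and bars are the authors' group means. Open circles give the 3 sets of siControl reads that the NPM1 mean allows within the range searched. In each gene the siChe-1 libraries lie below the siControl libraries, with TCOF1 closest (1959 and 2939 against 5215 to 7380.5). At the group means shown, the range searched allows an overlap for TCOF1 alone.

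Against the median of all genes on the spike-in scale, the 5 genes separated into 4 with a large further difference and TCOF1 with a small one. The deposited log2 fold changes lay below the median of all genes by 0.75 for DDX21 (difference -0.75), by 0.67 for NPM1 (-0.67), by 0.64 for NCL (-0.64) and by 0.53 for NPM3 (-0.53). TCOF1 differed from that median by -0.18. By the authors' values, 4.96% of genes had a lower log2 fold change than DDX21, 6.30% a lower one than NPM1 and 6.94% a lower one than NCL. For NPM3 the share was 10.04%, and for TCOF1 it was 31.3%.

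FPKM values of all 6 libraries, rescaled by the median of ratios over the 6285 genes whose mean FPKM reached 10, show the change relative to other genes. NPM1, NCL and DDX21 were lower in siChe-1 by limma with a mean-variance trend, NPM3 missed the threshold narrowly and TCOF1 was not called. That is 3 of 5 genes lower and 0 higher, where 15.1% of the genes tested were called lower and 15.1% higher, and the median log2 fold change of all genes was 0.00 to 2 decimals. Every siChe-1 library was lower than every siControl library for 3 of 5 genes (NPM1, NCL and DDX21), and for 22.8% of all genes tested (22.5% the other way round).

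NPM1 had a rescaled FPKM of 1420.4, 1213 and 1357 in siChe-1, against 2092, 1749 and 2287 in siControl. No siChe-1 library reached the lowest siControl library, and the means were 1330.0 ± 106 and 2042 ± 272 (SD, n = 3 each). The fold change of NPM1 was -0.61 on the log2(FPKM + 1) scale, with a standard error of 0.13 (limma adjusted p 0.0123). With the most abundant transcript in place of the sum it was -0.58 and not called (limma adjusted p 0.263). That transcript is NM_199185, ahead of NM_002520 by a narrow margin, and its groups overlap as described below. By deposited FPKM in siControl, a level per length of transcript, NPM1 ranked 26 among 12075 genes.

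NCL had a rescaled FPKM of 231, 309.7 and 279 in siChe-1, against 333, 438 and 475 in siControl, with no overlap of the groups. Its log2 fold change was -0.60 with a standard error of 0.17 (limma adjusted p 0.0314). This call was lost when 1 of 4 listed libraries was left out: siChe-1 at list position 1 (adjusted p 0.0981) or 3 (0.088), or siControl at list position 2 (0.0583) or 3 (0.105). It was also lost with upper-quartile scaling (limma adjusted p 0.0505).

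DDX21 had a rescaled FPKM of 223, 163 and 209 in siChe-1, against 339.8, 248 and 325 in siControl. The groups did not overlap, and the value at list position 2 was the lowest in both. Its log2 fold change was -0.61 with a standard error of 0.16 (limma adjusted p 0.0278). The call was lost without siChe-1 at list position 2 (adjusted p 0.061) or 3 (0.0714), and without siControl at list position 1 (0.079) or 3 (0.0961).

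NPM3 had a rescaled FPKM of 21.4, 28.6 and 24.7 in siChe-1, against 28.2, 36.5 and 41.2 in siControl. The highest siChe-1 library stood just above the lowest siControl library, so that the groups overlapped. Its log2 fold change was -0.48 with a standard error of 0.15 (limma adjusted p 0.0502), and it was called lower in 6 of 14 other settings, such as a pseudocount of 0.1 (adjusted p 0.0496) or a minimum mean FPKM of 1 (adjusted p 0.0325).

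TCOF1 had a rescaled FPKM of 15.5, 16.6 and 14.9 in siChe-1, against 15.9, 18.1 and 18.3 in siControl. The groups overlapped and lay close together, at 15.7 ± 0.871 in siChe-1 and 17.4 ± 1.33 in siControl (SD, n = 3 each). Its log2 fold change of -0.14 with a standard error of 0.09 was not called (limma adjusted p 0.254), and 33.2% of the genes tested had a lower one. By siControl FPKM, TCOF1 ranked 4539 among 12075 genes, NPM3 ranked 2582, DDX21 ranked 260 and NCL 187.

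**Figure D2:**
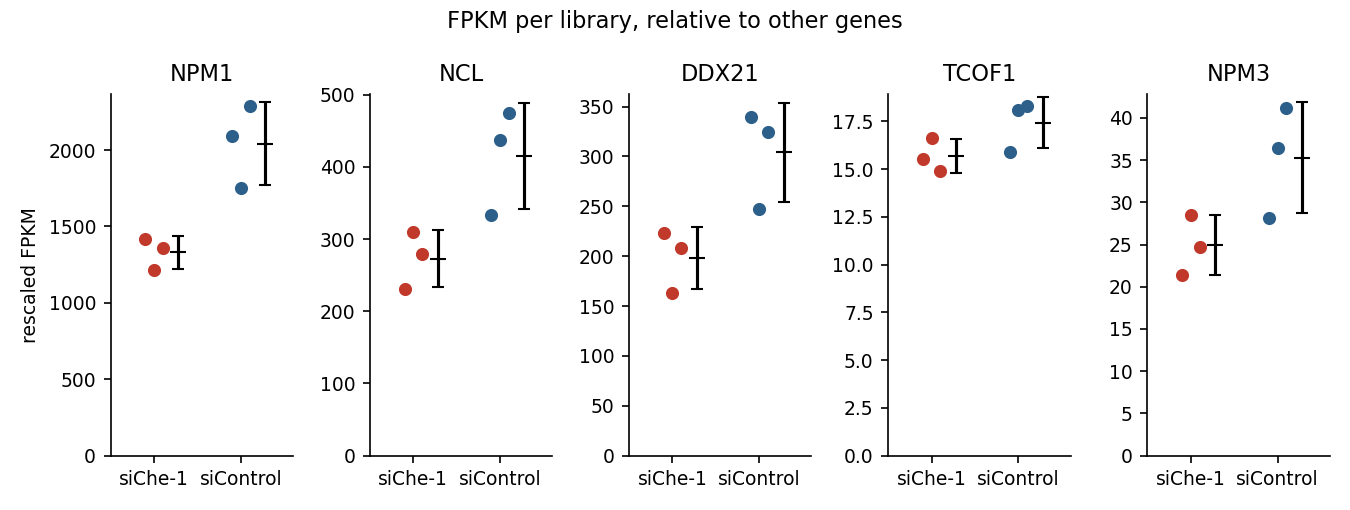
Rescaled FPKM of the 5 genes per library, siChe-1 (red) left of siControl (blue), with the mean and SD of each group in black (n = 3). NPM1, NCL and DDX21 do not overlap between groups, while in NPM3 (28.6 against 28.2) and TCOF1 (16.6 against 15.9) the highest siChe-1 library exceeds the lowest siControl library.

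The recovered reads of 5 libraries were also scaled by edgeR's TMM factors, which put the median of all genes at 0.00 to 2 decimals. Of the 4 members with recovered reads, 3 were lower and 0 higher, against 15.2% of 12543 genes called lower and 14.4% higher. DDX21 changed by -0.78 with a standard error of 0.13 (edgeR adjusted p 0.000774) and NCL by -0.61 with a standard error of 0.15 (edgeR adjusted p 0.00888). NPM3 was called on this scale, at -0.50 with a standard error of 0.13 (edgeR adjusted p 0.0124), and TCOF1 was not, at -0.21 with a standard error of 0.12 (edgeR adjusted p 0.197). NPM1 was lower with each of its 3 read sets, at -0.62, -0.67 and -0.72 (edgeR adjusted p 0.0365, 0.000726 and 0.0187). Without siChe-1 replicate 1 neither NCL (adjusted p 0.131) nor NPM3 (adjusted p 0.1) was called by edgeR, and NPM3 was also lost without siControl replicate 3 (adjusted p 0.0642).

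**Figure D3:**
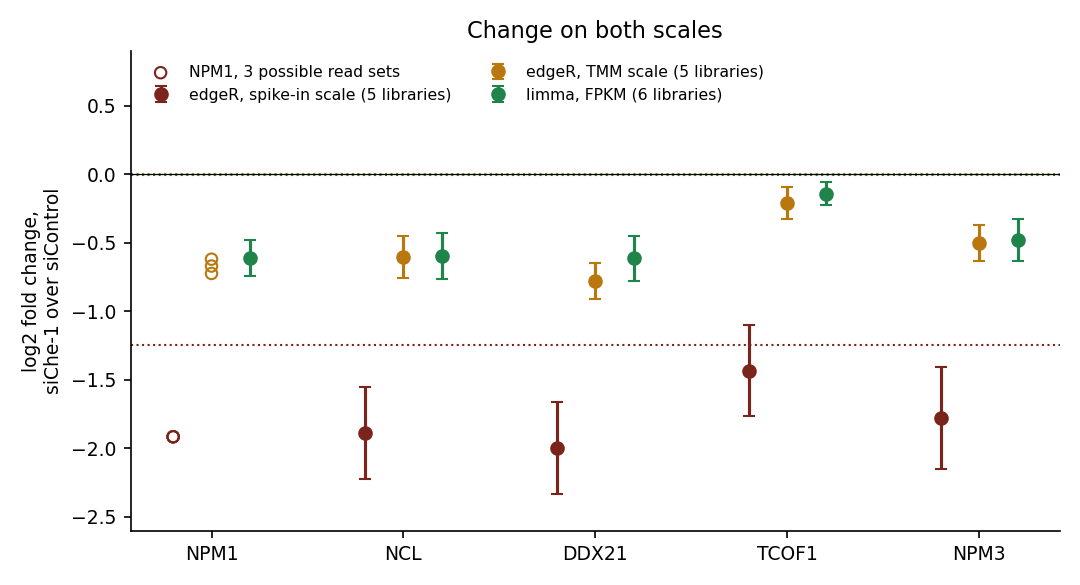
Log2 fold change of siChe-1 over siControl for the 5 genes by edgeR on the spike-in scale, by edgeR with TMM scaling and by limma on FPKM. Error bars are standard errors, dotted lines the median of all genes in each fit, and open circles NPM1 with its 3 possible read sets. On the spike-in scale the values run from -2.00 (DDX21) to -1.43 (TCOF1), all below the median of all genes of -1.25, and TCOF1 lies nearest to the median in all 3 fits.

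Differences between the members were set out over their 10 pairs, as the log2 ratio of the rescaled FPKM of 2 genes in each library. The ratio of NPM1 to TCOF1 was 6.11 to 6.42 in siChe-1 and 6.52 to 6.95 in siControl, a difference of -0.47. For NCL over TCOF1 the ratio was 3.81 to 4.14 in siChe-1 and 4.31 to 4.63 in siControl, a difference of -0.46. NPM3 over TCOF1 had 0.44 to 0.75 in siChe-1 and 0.79 to 1.13 in siControl, a difference of -0.34. In these 3 pairs, and in NPM3 over NCL (difference 0.12), the libraries of the groups did not overlap, and the exact two-sided permutation test gave p = 0.1, the smallest that 3 against 3 libraries allow (adjusted p 0.25 over the 10 pairs). The ratio of TCOF1 to DDX21 differed by 0.47 with overlapping groups (exact permutation p = 0.3, adjusted p 0.6). NPM1 and DDX21 differed by -0.0002 in their ratio and overlapped, with a range of 2.67 to 2.88 in siChe-1 and 2.62 to 2.81 in siControl. These exact tests cannot pass 0.05 in this design, so that no pair is shown to differ or to move alike.

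Of the 3 transcripts of NPM1, 2 were lower in siChe-1 by limma on rescaled log2(FPKM + 1), and the rare one with the short coding end showed the largest change of the 3. NM_001037738 had a deposited FPKM of 39.6, 43.2 and 48.3 in siChe-1, against 89.0, 93.2 and 111.5 in siControl. These groups stood far apart, and the log2 fold change was -1.03 with a standard error of 0.11 (limma adjusted p 0.00408 over 6602 transcripts). NM_002520, the full-length form, had 604, 688 and 623 in siChe-1, against 851, 1122 and 997 in siControl, again without overlap. Its log2 fold change was -0.52 with a standard error of 0.14 (limma adjusted p 0.045), and this call was lost when any 1 of 5 of the listed libraries was left out, siControl at list position 1 being the exception.

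NM_199185, the form without the 87-base exon, had a deposited FPKM of 714, 430.2 and 668 in siChe-1, against 1219, 533 and 1325 in siControl. The siControl value at list position 2 lay below 2 of the siChe-1 values, so that the groups overlapped, and the log2 fold change of -0.58 with a standard error of 0.36 was not called (limma adjusted p 0.301). Without that siControl library it was -0.97 (limma adjusted p 0.0436). The authors' deposited table, by contrast, gives q values of 0.25, 0.0956 and 0.143 for NM_001037738, NM_002520 and NM_199185, none of them under 0.05, and log2 ratios of -1.16, -0.63 and -0.76.

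As a share of the summed NPM1 FPKM of a library, NM_001037738 held 2.92%, 3.72% and 3.61% in siChe-1, against 4.12%, 5.33% and 4.58% in siControl. The groups did not overlap, and the difference of means was -1.26 percentage points (exact two-sided permutation p = 0.1, the smallest possible, adjusted p 0.3 over the 3 transcripts). The shares of the other two transcripts varied widely within both groups. NM_002520 held 44.5%, 59.3% and 46.5% in siChe-1, against 39.4%, 64.2% and 41.0% in siControl (exact permutation p = 0.7), and NM_199185 held 52.6%, 37.0% and 49.9% in siChe-1, against 56.5%, 30.5% and 54.5% in siControl (exact permutation p = 0.9). In both groups the library at list position 2 held the most NM_002520 and the least NM_199185. FPKM values of overlapping transcripts are estimates in which reads of shared exons are divided by a model, and all 3 share most of their sequence.

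**Figure D4:**
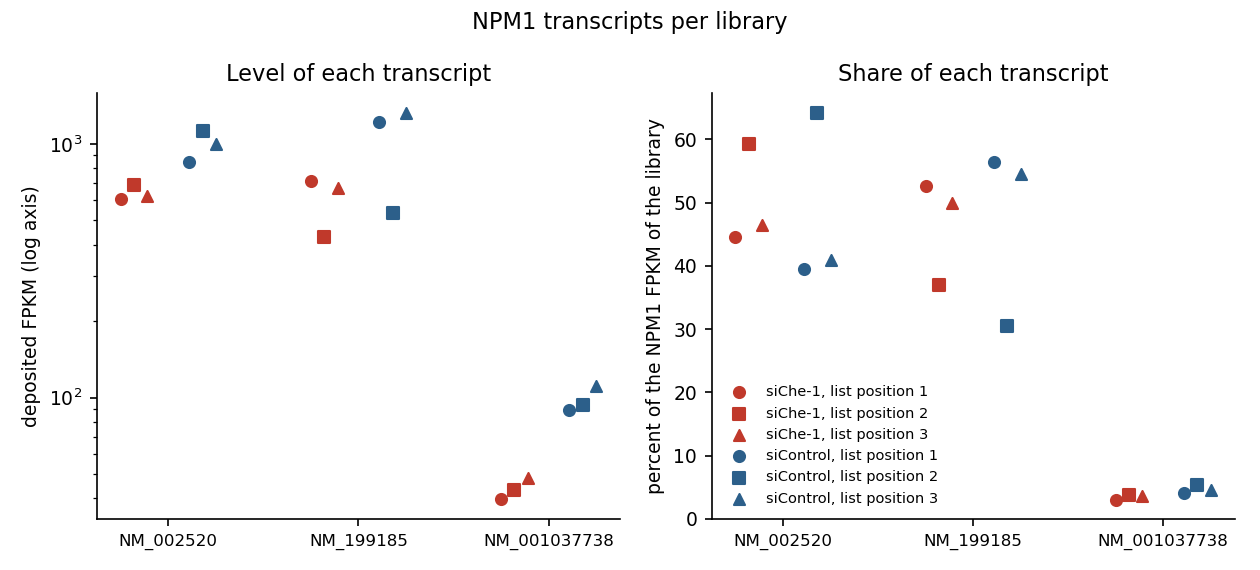
Deposited FPKM (left, log axis) of the 3 NPM1 transcripts and their percentage of the summed NPM1 FPKM of each library (right), siChe-1 in red and siControl in blue, with a marker shape for each position in the deposited list. NM_001037738 holds 2.92% to 3.72% in siChe-1 and 4.12% to 5.33% in siControl, while the shares of NM_002520 and NM_199185 spread widely within both groups.

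NCL, DDX21 and NPM3 each had 1 listed transcript. In the fit over transcripts NM_005381 (NCL) had a log2 fold change of -0.58 (limma adjusted p 0.0593), NM_004728 (DDX21) one of -0.60 (limma adjusted p 0.0516) and NM_006993 (NPM3) one of -0.46 (limma adjusted p 0.096), so that none of these was called. Thus 2 of the 6 member transcripts tested were lower, both of NPM1, against 10% of all transcripts tested (10.1% were higher). In the deposited FPKM, 28.3% of transcripts had every siChe-1 library below every siControl library and 12.7% had the reverse. In the authors' deposited table NM_005381, NM_004728 and NM_006993 have the same q value of 0.000601, which therefore does not rank them. The share of all transcripts with such a q value was not counted. TCOF1 had 7 listed transcripts, all with a mean FPKM under 10 in both groups and none tested. The most abundant of them, NM_001135244, had 3.59, 6.56 and 4.31 in siChe-1, against 5.56, 6.98 and 8.13 in siControl, and all 7 overlapped between the groups. No share was computed for NCL, whose NM_005381 was its only form. On hg19, the build of the files, the loci are chr5:170814708-170837888 (NPM1), chr2:232319459-232329205 (NCL), chr10:70715892-70744279 (DDX21), chr10:103541082-103543170 (NPM3) and chr5:149737202-149779871 (TCOF1).

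The introns of NCL host the small nucleolar RNAs SNORD20, SNORD82 and SNORA75, which guide modification of ribosomal RNA. SNORA75 alone was listed, with a deposited FPKM of 0, 12.6 and 9.07 in siChe-1 and of 0, 10.6 and 0 in siControl, and fell below the minimum for testing. Among paralogues and kin of the members, NOLC1, a nucleolar phosphoprotein that binds treacle and shares its repeat structure, was lower relative to other genes (log2 fold change -0.73, limma adjusted p 0.0026), with an FPKM of 70.0 to 76.2 in siChe-1 and of 113 to 147 in siControl. DDX50, the close paralogue of DDX21, had a log2 fold change of -0.04 and was not called (limma adjusted p 0.755), with an FPKM of 34.1 to 38.8 in siChe-1 and of 35.4 to 42.1 in siControl. Reads from stretches that are near-identical in DDX21 and DDX50 could be divided between them. NPM2, the oocyte member of the nucleoplasmin family, had means of 10.8 in siChe-1 and 20.7 in siControl in the authors' deposited table (adjusted p 0.716) and was not in the FPKM test.

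Among other nucleolar DEAD-box and DEAH-box helicases, 12 of 16 passed the FPKM minimum, and 5 were lower and 0 higher by limma, with a median log2 fold change of -0.25, where 15.1% of all genes tested were lower and 15.1% higher. With any 1 library left out, 0 to 3 of them were called lower, while lower calls over all genes fell from 948 to between 500 and 890. DDX10 changed by -0.61 (limma adjusted p 0.0262), at 33.1 to 43.4 FPKM in siChe-1 and 50.2 to 77.2 in siControl, and its call was lost in 4 of 6 fits with 1 library left out (adjusted p 0.0557 to 0.0942). DDX24, the most abundant of them, changed by -0.28 (limma adjusted p 0.0362), but was not called in 5 of those 6 fits (0.0739 to 0.117). DDX47, DDX55 and DDX56 were the other three called, and each of these calls was lost in 5 or 6 of the 6. All 16 were lower in the authors' deposited table, with a median of -1.56 beside -1.25 for all genes, of which 63.5% were called lower there.

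Treacle acts with RNA polymerase I, and 2 subunit genes of Treacher Collins syndrome, POLR1C and POLR1D, stand in the list of its partners with POLR1B, another such gene. Of the 8 listed, 3 were lower (NOLC1, POLR1B and POLR1C) and 1 higher by limma, with a median of -0.12, against 15.1% lower and 15.1% higher of all genes tested. POLR1B, the second largest subunit, changed by -0.45 (limma adjusted p 0.0096), with 10.2 to 12.2 FPKM in siChe-1 and 16.3 to 18.1 in siControl. KBTBD8, the adaptor that joins the ubiquitin ligase scaffold CUL3 to treacle and NOLC1, changed by 0.40 (limma adjusted p 0.0296). This call was lost in 4 of 6 fits with 1 library left out (adjusted p 0.0615 to 0.102), at a minimum mean FPKM of 1, without a filter and with the deposited scaling, and with TMM the value was 0.27 (edgeR adjusted p 0.0833). KBTBD8 was called lower on the spike-in scale in the authors' deposited table (-0.97, adjusted p 0.0395). UBTF (-0.11), POLR1A (-0.12), CUL3 (-0.09) and POLR1D (0.11) were not called by limma.

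The list of other abundant nucleolar proteins held 18 tested genes, of which 13 were lower and 0 higher by limma, with a median log2 fold change of -0.49, against 15.1% lower of all genes tested. With 1 library left out the count was 11 to 14, and by edgeR with TMM 18 of 19 were lower, against 15.2% of all genes. BOP1 and RRP9, of large-subunit and small-subunit assembly, had the smallest p, at -0.65 (limma adjusted p 0.00305) and -0.60 (limma adjusted p 0.00333). NOP58, a core protein of box C/D snoRNPs and the most abundant by FPKM, changed by -0.60 (limma adjusted p 0.00833), with 89.4 to 110.5 FPKM in siChe-1 and 140.5 to 169 in siControl. FBL (-0.43), WDR12 (-0.44), EBNA1BP2 (-0.50), FTSJ3 (-0.29) and NOL11 (-0.15) were not called by limma on FPKM. The values of NPM1, NCL and DDX21 lie within the range of this list (-0.75 to -0.15), and that of TCOF1 just above it.

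Of 9 tested partners of NPM1 in the nucleolar stress pathway, 2 were lower and 0 higher by limma, with a median of -0.17, a share near that of all genes tested (15.1% lower). With any 1 library left out, 0 or 1 was called lower, and lower calls over all genes also fell. RPL23, a ribosomal protein that binds NPM1 and MDM2, changed by -0.44 (limma adjusted p 0.0201), but was not called in 3 of 6 fits with 1 library left out (adjusted p 0.0632 to 0.0863). XPO1, the nuclear export receptor of NPM1, changed by -0.25 (limma adjusted p 0.0481), and this call was lost in 6 of those 6 fits (0.0784 to 0.145), with upper-quartile scaling and with the most abundant transcript. RPL11, the most abundant, had -0.26 (limma adjusted p 0.389). Neither MDM2 (0.30) nor MDM4 (0.19) was called by limma. Ribosomal protein genes have many pseudogenes, which makes counts of RPL11 and RPL23 uncertain.

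MYC, a transcription factor for which NPM1 and NCL are known target genes, was lower relative to other genes (log2 fold change -0.92, limma adjusted p 0.00109), at 138 to 153 FPKM in siChe-1 and 284 to 310.1 in siControl. Its partner MAX changed by -0.53 (limma adjusted p 0.0099), at 11.7 to 15.5 FPKM in siChe-1 and 19.4 to 22.1 in siControl. In the spike-in-normalized reads MYC had 6923 and 4631 in siChe-1, against 20967, 28571 and 27928 in siControl.

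**Figure D5:**
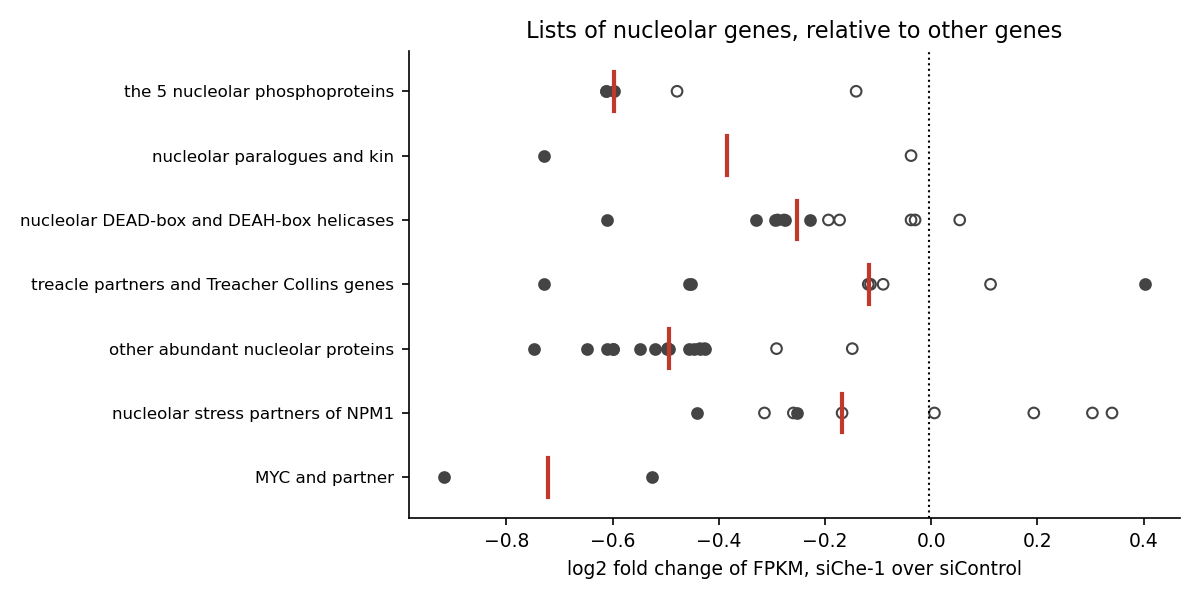
Log2 fold change of FPKM, siChe-1 over siControl, for the 5 genes and for each tested member of 6 lists. Filled points passed an adjusted p of 0.05 by limma, red bars are list medians and the dotted line is the median of all 6285 genes. The median of the other abundant nucleolar proteins is -0.49 and that of the helicases -0.25, and KBTBD8, at 0.40, is the one filled point on the right.

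The genes whose profile over the 6 libraries was nearest to that of each member were found by Euclidean distance between centred log2(FPKM + 1) values, among 6284 genes. POPDC3 (0.0845) and DNAJC2 (0.0992), a ribosome-associated chaperone, were nearest to NPM1. FAM111B (0.0737) and WDR43 (0.0786), a small-subunit processome protein, were nearest to DDX21. NCL had PRELID1 (0.144) and NPM3 (0.16) as its nearest genes, and NPM3 had TRAPPC2L (0.121) and NCL (0.16), so that NPM3 and NCL were each within the first 2 genes of the other. PNN (0.0718) and UBA1 (0.0785) were nearest to TCOF1, with log2 fold changes of -0.16 and -0.14 and no call by limma. The 6 libraries form 2 groups, so that a like group difference alone shortens these distances.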

How the data were processed

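The deposited tables are of 3 kinds and were used as described by their headers. The authors deposited the raw read count of 92 spike-ins per library. A comparison table holds, per the file headers, a signal (reads divided by spike-in size factors, averaged by group), the ratio (fold change), its log2, and p-values. A transcript table holds the authors' FPKM per group, with 3 listed FPKM values per group that lack replicate numbers, and their log2 ratios and q-values. TopHat, Cufflinks, Cuffdiff, HTSeq and DESeq2 on hg19 are named in the submitters' processing notes, without roles. The sources used here do not say if counting used strand.

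Whole reads behind the authors' means were recovered for 16396 of 16444 genes (99.7%) from 5 libraries. For group means of 200 or more, only sets within 0.6 on the log2 scale of each library's median gene were sought. Wider scatter of such genes, the 5 members among them, would be missed. Within that range the siControl mean of NPM1 allowed 3 sets, so that NPM1 entered edgeR only in alternatives chosen after seeing the data. edgeR 4.0.16 tested the reads (quasi-likelihood) on spike-in size factors and with TMM, at a mean of at least 10. limma 3.58.1 tested log2(FPKM + 1) of 6 libraries, per gene and per transcript, at a mean FPKM of at least 10, which understates changes of low genes. The design foresaw both scales. All p-values are two-sided. Those of edgeR and limma were adjusted by Benjamini-Hochberg over all features tested, with a threshold of 0.05. Methods were tested on simulated data. Single values were compared by exact permutation tests (scipy 1.17.1). Their p-values were adjusted over the 10 pairs of members or the 3 NPM1 transcripts, and not adjusted for spike-in-normalized reads. Alternatives covered filters, pseudocounts, scalings, DESeq2 1.42.0, a replicate block and leaving out libraries.

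Members and lists were chosen with earlier results of these data known. The text names the 5 members, AATF, MYC, MAX, the paralogues and NCL snoRNAs, of each other list the 2 genes with the smallest limma p and the most abundant, and for each member the 2 nearest profiles. Other list genes named beside a count (such as KBTBD8, UBTF, MDM2 and FBL) were chosen after their values were seen. One gene of the list of nucleolar stress partners is not reported here. Another stands in a list under 2 symbols (NIFK and MKI67IP) and is in the files under the second.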

Additional observations from a re-analysis of the deposited data

How the results depend on the processing

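All 5 genes had negative log2 fold changes under every alternative run on either scale, and AATF was called lower in all. The count of 5 in the authors' deposited table held without a filter and at an adjusted p under 0.01. The share of all genes called in these cases was not counted, so that they set the members apart from no other gene. By limma on gene FPKM the count of 3 was 2 to 4 under other pseudocounts, filters and scalings. At a minimum mean FPKM of 1, 1490 of all 10778 genes were called lower, and without a filter 1579 of 12075. With 1 library left out the count was 1 to 3, while lower calls over all genes fell from 948 to between 500 and 890. By limma on gene FPKM, NPM1 was lost only when its most abundant transcript alone, NM_199185, was used (-0.58, adjusted p 0.263). Calls over all genes shifted with the scaling, from 948 lower and 949 higher to 1279 and 592 with the deposited scaling and to 713 and 1221 with the upper quartile. The count of 2 lower transcripts was 4 with the deposited scaling, which put the median of all transcripts at -0.11. With the upper quartile it was 1. With 1 library left out it was 1 to 4, while lower calls over all transcripts fell from 662 to between 220 and 456. DDX50 changed sign with the upper quartile (0.025). For the listed partners of treacle the count of 1 called higher was 0 at a minimum mean FPKM of 1. With 1 library left out, an alternative chosen after seeing the data, the lower calls were 0 to 3 of the helicases (5 with all libraries), 2 to 3 of the partners of treacle (with 0 to 1 higher), 11 to 14 of the other nucleolar proteins and 0 to 1 of the stress partners. In differences of share, NM_002520 ran from -2.68 to 9.90 percentage points with 1 library left out (-2.48 without siControl at list position 1, -1.71 without position 3, -2.68 without siChe-1 at position 2), and NM_199185 from -8.96 to 4.09 (4.02, 3.02 and 4.09 in the same cases). NM_001037738 kept its direction (-1.54 to -0.94).

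With edgeR on spike-in factors, the count of 4 was 3 to 4 with 1 library left out and 4 with DESeq2. Over all genes the 10590 lower calls became 2889 without siChe-1 replicate 2. With DESeq2 on spike-in factors, 10711 of all 12543 genes were called lower. NPM2 changed sign with TMM (0.38) and with DESeq2 size factors over genes (0.38). With TMM the count of 3 was 1 to 3 with 1 library left out. A replicate block could be fitted to 2 pairs only: on the spike-in scale 0 members were then called (adjusted p 0.249 to 0.263, 58 genes called lower in all), and with TMM 3. The deviations of same-numbered libraries correlated at 0.30 and 0.28, but nothing says that numbers mark a shared culture or day, and with 2 siChe-1 libraries the values mirror each other. FPKM values carry no replicate numbers, so no paired analysis was possible there. The cause of these differences was not tested. The TCOF1 transcripts and SNORA75 were not tested, since all were under the FPKM minimum.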
